A study of Mus musculus with 4 samples.

Results

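Small nucleolar RNA (snoRNA) host genes are genes whose introns carry snoRNAs, and 8 non-coding ones were followed by name: Gas5, Snhg1, Snhg3, Snhg5, Snhg6, Snhg8, Snhg12 and Snhg15. All 8 were among the 55359 gene identifiers counted, and 7 of them had enough counts to be tested among 14637 genes. The data are bulk RNAseq of T8, a pB-ALL (precursor B cell acute lymphoblastic leukemia) cell line that arose from 1 tumour of a mouse without functional IRF4. All 4 libraries carry the genotype Irf4-/- and come from retrovirally transduced cells. The 2 EV-RV libraries received a retrovirus coding for GFP alone, and the 2 IRF4-RV libraries a retrovirus coding for GFP plus IRF4. Still viable cells were taken a day after transduction, so that cells already lost are not represented, and a single tumour line stands for the disease. The libraries are labelled as biological replicates, but whether they came from separate cultures is not given in the sources used here, and p-values then measure only the spread between these libraries.

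The comparison asks which transcripts of these leukemia cells change when IRF4 is put back, and here which snoRNA hosts do. A snoRNA host is transcribed and spliced, and its snoRNAs are trimmed out of the excised introns. Box C/D snoRNAs guide 2'-O-methylation and box H/ACA snoRNAs guide pseudouridylation of ribosomal RNA. The spliced exons of hosts such as Gas5 (growth arrest specific 5) code for no known protein, often start with a pyrimidine tract like the mRNAs of ribosomal proteins (5'TOP mRNAs), and are removed by nonsense-mediated decay when they are translated.

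The letters at the starts and inside the introns show what these genes have in common and where they differ. The windows below run from 40 bases before to 19 bases after a RefSeq start site (build GRCm38.p6), 5′ to 3′ on the strand of the gene, for the members with the lowest p-values. Capitals mark a start oligopyrimidine tract, searched as a C within 5 bases of the start site followed by at least 4 pyrimidines on the gene strand.
Gas5, chr1:161035126-161035185, plus strand: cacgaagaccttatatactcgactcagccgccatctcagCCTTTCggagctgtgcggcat
Snhg8, chr3:123508317-123508376, minus strand: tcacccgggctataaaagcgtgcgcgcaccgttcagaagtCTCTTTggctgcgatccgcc
Snhg5, chr9:88522878-88522937, minus strand: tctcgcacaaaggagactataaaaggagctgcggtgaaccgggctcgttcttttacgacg
Snhg15, chr11:6528741-6528800, minus strand: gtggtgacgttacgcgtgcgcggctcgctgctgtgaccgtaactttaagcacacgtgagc
Of 7 members with a RefSeq start entry, 4 held such a tract (Gas5, Snhg3, Snhg8 and Snhg12), against 18.3% of 32851 promoters. A member was counted if any of its starts held a tract, while promoters were counted 1 by 1. The Snhg5 window has such a run further downstream than the 5 bases searched, so that its lack of a match depends on the start site used. The upstream start of Gas5, at position 161034601 of chromosome 1, held none. In the full promoter entries (250 bases before to 50 after the start), an E-box, CACGTG, was found on both strands (it is its own reverse complement) in 1 of 7 members, Snhg15, against 7.15% of promoters. An IRF element, GAAANNGAA, was in 0 of 7 members against 8.56% of promoters, and an ETS-IRF composite element, GGAANNGAA, in 0 of 7 against 8.24%, both searched on both strands. These matches describe letters and not binding.

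The annotation placed 30 snoRNA entries inside the 8 members on the same strand. Snord80 in Gas5 and Snora16a in Snhg12 are each entered under 2 identifiers that overlap, which leaves 28 loci. Gas5 held 9 of these loci, Snhg1 8, Snhg12 4, Snhg3 and Snhg5 2 each, and Snhg6, Snhg8 and Snhg15 1 each. The sequences below, from the annotation of GRCm38 and on the strand of the host, are from hosts that rose, fell or came closest to it. For Gas5 only 1 of its 9 loci, Snord47, is printed, as an example. Capitals mark the C box (TGATGA) near the 5′ end and the D box (CTGA) near the 3′ end, or the ACA that lies 3 bases before the end of a box H/ACA snoRNA.
Snord47 in Gas5, chr1:161038082-161038158, plus strand: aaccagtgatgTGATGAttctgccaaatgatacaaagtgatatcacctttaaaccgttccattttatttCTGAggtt
Snord50a in Snhg5, chr9:88521529-88521600, minus strand: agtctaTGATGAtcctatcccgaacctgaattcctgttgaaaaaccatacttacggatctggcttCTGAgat
Snord50b in Snhg5, chr9:88521797-88521868, minus strand: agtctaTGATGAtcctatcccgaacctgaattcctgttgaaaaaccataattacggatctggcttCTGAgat
Snora24 in Snhg8, chr3:123507937-123508066, minus strand: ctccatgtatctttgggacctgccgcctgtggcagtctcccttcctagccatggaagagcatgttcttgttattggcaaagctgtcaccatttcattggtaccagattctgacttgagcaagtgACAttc
Snora9 in Snhg15, chr11:6528033-6528165, minus strand: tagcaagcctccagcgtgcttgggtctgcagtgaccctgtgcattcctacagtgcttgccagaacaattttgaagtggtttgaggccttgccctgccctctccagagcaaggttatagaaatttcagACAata
By these letters alone, 17 of the 28 loci carried both a C and a D box, 6 carried the ACA without that pair, and 5 carried neither. In Gas5, 1 of the 17, listed as Mir5117, also had the letters ACA at that place, and 2 other loci of Gas5 carried neither. Gas5, Snhg1, Snhg5 and Snhg6 hold mainly or only box C/D snoRNAs, while Snhg3, Snhg8 and Snhg15 hold box H/ACA snoRNAs and Snhg12 holds both kinds. The pair in Snhg5 differed by 1 base, C50A (Snord50a first, counted from 1 at the 5′ end).

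The libraries held between 31230223 and 37817752 counts. Levels are given as CPM, the counts of a gene in each 1000000 counts of a library after scaling by TMM factors, and 3 counts, the limit that a count of 0 allows, came to 0.0824 to 0.0952 CPM. Such limits cover counting error only. Irf4, the gene carried by the vector, stood at 8070 and 7600 counts in the control libraries and at 95578 and 90693 in the IRF4-RV libraries. That gave a log2 fold change of 3.46 ± 0.0907 (SE, adjusted p = 1.14e-06, edgeR). The source of the Irf4 counts in the control libraries, whose cells are Irf4-/-, was not tested. The B-cell progenitor markers (13 genes) summed to 5900 to 6340 CPM with EV-RV and 4990 to 5040 with IRF4-RV. Rag1 and Rag2, the recombinase genes, were too low to test. Of the 11 tested, 2 were called higher and 3 lower by edgeR, against 16.0% and 13.7% of all genes. The 3 lower were Vpreb1, Vpreb2 and Igll1. Their means went from 665.1, 591.8 and 953.3 CPM with EV-RV to 236.9, 237.4 and 388.0 with IRF4-RV. The sum over the 13 markers fell by no more than these 3 genes did, so it shows no fall of the others. Of the 11 tested, 6 were not called, and their median log2 fold change over all 11 was -0.09. The 13 T and NK cell markers summed to 48.9 to 49.1 and 33.5 to 33.9 CPM, with Cd8a, Cd8b1, Trbc2 and Ncr1 at 0. Most of these sums was Zap70 (means of 28.14 and 19.88 CPM) and Trac (18.75 and 11.54 CPM). These 2 of the 4 tested were called lower by edgeR, where 13.7% of all genes were. Cd3d, Cd3e, Cd3g and Cd4 were too low to test. Macrophage markers summed to at most 1.18 CPM (3 of 11 at 0), erythroid markers to 12.3 to 16.0 (1 of 8 at 0), and the 11 stromal markers to 48.6 to 91.2 with EV-RV and 48.4 to 226 with IRF4-RV. Of the 11 granulocyte markers, 5 were at 0, among them S100a8 and S100a9. The 11 summed to 0.19 to 0.21 CPM with EV-RV, against 1.81 to 2.18 CPM in the IRF4-RV libraries. Ly6g, a neutrophil surface protein, was the 1 member tested. It passed the filter on low counts only through the IRF4-RV libraries, so that its call higher by edgeR adds nothing to these sums. The part of these shifts in the results below was not tested.

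Putting IRF4 back left the snoRNA hosts without a common direction. Gas5 rose by 18.0% and Snhg5 fell by 24.7%, while Snhg1, Snhg6, Snhg8, Snhg12 and Snhg15 did not pass the test. With edgeR's quasi-likelihood test and Benjamini-Hochberg adjustment at a false discovery rate (FDR) of 0.1, 2 of 7 members (28.6%) were therefore called, where 29.7% of all genes tested were called. In each direction 1 of 7 members was called, against 16.0% of all genes higher and 13.7% lower. The share called is thus about that of all genes. Scaling by library size alone changed the split over all genes from 2340 higher and 2009 lower to 1743 higher and 2867 lower and ended the call of Gas5, with Snhg5 still called lower. At an unadjusted p under 0.05, 3 of 7 members and 5057 of 14637 genes passed. The median log2 fold change was 0.04 over the 7 members and 0.01 over all genes. The groups did not overlap for 5 of 7 members (71.4%), with IRF4-RV above in 3 and below in 2, where 61.3% of all genes had groups that did not overlap. In bulk RNA, fewer cells with a transcript and less of it per cell cannot be told apart.

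**Figure D1:**
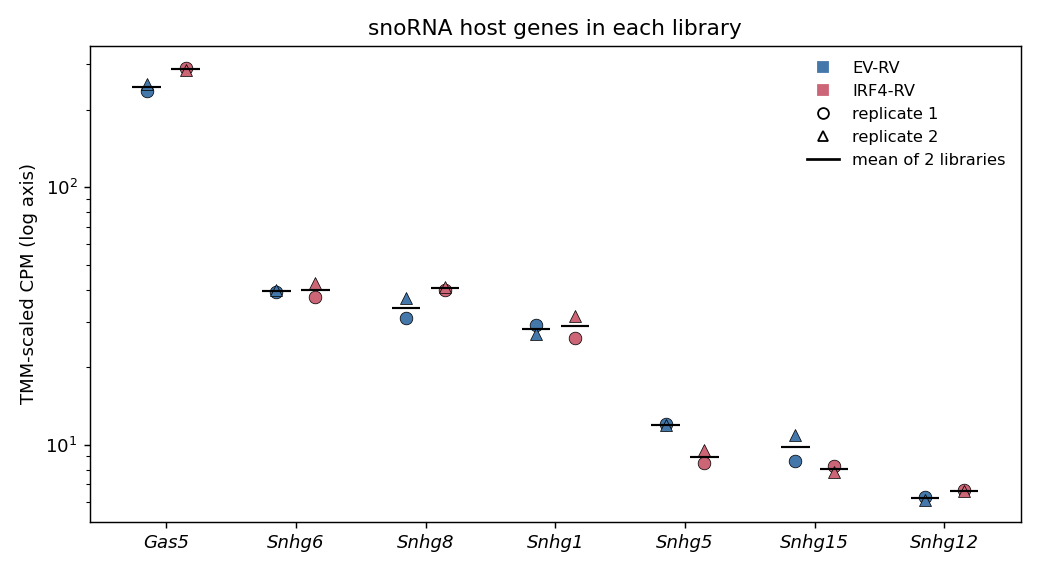
TMM-scaled CPM (log axis) of the 7 tested snoRNA host genes in each library, with points for libraries and bars for the mean of the 2 libraries of a group. The IRF4-RV points of Gas5, Snhg8 and Snhg12 lie above both EV-RV points, those of Snhg5 and Snhg15 lie below, and those of Snhg1 and Snhg6 enclose or overlap them.

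Gas5 (ENSMUSG00000053332, chr1:161034422-161038539, plus strand, a processed transcript gene), the most abundant host, had 236.8 and 250.9 CPM in the EV-RV libraries and 291.0 and 284.6 CPM in the IRF4-RV libraries. Both IRF4-RV libraries were above both EV-RV libraries, at 287.8 ± 4.57 against 243.9 ± 9.95 CPM (mean ± SD, n = 2 each). The log2 fold change was 0.24 ± 0.0716 (SE, 95% interval 0.07 to 0.41), 1.18-fold, with an adjusted p of 0.0481 in edgeR's quasi-likelihood test. That size lies at the 49.5th percentile of absolute log2 fold changes among the genes tested. The call was lost with library size alone (0.15, adjusted p = 0.128), without EV-RV replicate 1 (0.19, adjusted p = 0.157), without IRF4-RV replicate 1 (0.20, adjusted p = 0.325) and without IRF4-RV replicate 2 (0.26, adjusted p = 0.208), all by edgeR, and the sign was positive in each. Mitochondrial transcripts made up 1.98% and 2.53% of the EV-RV and 3.09% and 2.76% of the IRF4-RV counts, and ribosomal protein transcripts 13.2% and 14.3% against 14.6% and 15.6%. Their part in the rise of Gas5 was not tested.

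Snhg5 (ENSMUSG00000097195, chr9:88521050-88522929, minus strand, a processed transcript gene), the host of the Snord50 pair, moved the other way. It had 12.02 and 11.86 CPM under EV-RV, against 8.45 and 9.53 CPM under IRF4-RV. Both IRF4-RV libraries were below both EV-RV libraries, at 8.99 ± 0.768 against 11.94 ± 0.111 CPM (mean ± SD, n = 2 each). The log2 fold change was -0.41 ± 0.121 (SE, 95% interval -0.69 to -0.13), with an adjusted p of 0.0457 in edgeR's test. It rests on 286 to 401 counts in a library, against 7902 to 10361 for Gas5. The call was lost with DESeq2 (-0.41, adjusted p = 0.139), without EV-RV replicate 1 (-0.41, adjusted p = 0.124 in edgeR), without EV-RV replicate 2 (-0.42, adjusted p = 0.109 in edgeR) and without IRF4-RV replicate 1 (-0.35, adjusted p = 0.188 in edgeR).

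Because Gas5 and Snhg5 moved in opposite directions, their ratio within a library, which no scaling factor touches, shows the contrast. There were 19.7 and 21.2 counts of Gas5 for each count of Snhg5 under EV-RV, against 34.5 and 29.9 under IRF4-RV. The ratio of Snhg8 to Snhg5 went the same way, from 2.59 and 3.11 to 4.7 and 4.31. These pairs were chosen after their values were seen and carry no test. The ratio of Gas5 to Snhg1, a host with nearly equal group means, was 8.12 and 9.35 under EV-RV, against 11.2 and 8.99 under IRF4-RV, so that here the groups overlapped.

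Snhg8 (ENSMUSG00000104960, chr3:123507552-123508404, minus strand), the host of Snora24, had a fold change as large as that of Gas5 but more spread. Its levels were 31.08 and 36.92 CPM under EV-RV, against 39.68 and 41.06 CPM under IRF4-RV. The groups did not overlap, but the EV-RV libraries lay further apart (34.0 ± 4.13 CPM, SD) than the IRF4-RV libraries (40.37 ± 0.975 CPM). The log2 fold change was 0.25 ± 0.105 (SE, 95% interval 0.00 to 0.49), and the adjusted p of 0.139 in edgeR did not pass. Without EV-RV replicate 2, the higher of the control libraries, it was 0.38 (adjusted p = 0.0491 in edgeR), and without EV-RV replicate 1 it was 0.12 (adjusted p = 0.509 in edgeR).

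Snhg15 (ENSMUSG00000085156, chr11:6525591-6528760, minus strand), the host of Snora9, had 8.63 and 10.94 CPM under EV-RV, against 8.27 and 7.86 CPM under IRF4-RV. The IRF4-RV libraries were below, yet the gap to EV-RV replicate 1 was small. The log2 fold change was -0.28 ± 0.148 (SE, 95% interval -0.62 to 0.07, adjusted p = 0.229, edgeR). Without EV-RV replicate 1 it was -0.45 (adjusted p = 0.0927 in edgeR) and without EV-RV replicate 2 it was -0.10 (adjusted p = 0.732 in edgeR), so that the control library kept decides its size and its call.

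Snhg12 (ENSMUSG00000086290, chr4:132308623-132311024, plus strand), which carries snoRNAs of both box kinds, was the lowest of the tested members in CPM. It had 6.26 and 6.09 CPM under EV-RV, against 6.64 and 6.59 CPM under IRF4-RV. The libraries of each group lay close together and the groups did not overlap, but the log2 fold change was 0.10 ± 0.136 (SE, 95% interval -0.22 to 0.41, adjusted p = 0.658, edgeR). With 192 to 240 counts in a library, the interval spans changes in both directions.

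Snhg1 (ENSMUSG00000108414, chr19:8723475-8726443, plus strand), a host of 8 snoRNAs, had 29.16 and 26.83 CPM under EV-RV, against 25.98 and 31.67 CPM under IRF4-RV. The IRF4-RV libraries enclosed the EV-RV libraries. The log2 fold change was 0.04 ± 0.118 (SE, 95% interval -0.23 to 0.32, adjusted p = 0.839, edgeR).

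Snhg6 (ENSMUSG00000098234, chr1:9941959-9944118, minus strand, annotated as a lincRNA), the host of Snord87, was likewise similar in level between the groups. It had 39.05 and 39.77 CPM under EV-RV, against 37.44 and 42.41 CPM under IRF4-RV, and the groups overlapped. The log2 fold change was 0.02 ± 0.095 (SE, 95% interval -0.20 to 0.24, adjusted p = 0.914, edgeR). Of its exonic bases, 11.1% also belong to an exon of Mcmdc2 on the other strand, which had at most 2 counts in a library. The sign of the estimates for Snhg1 and Snhg6 was negative with library size alone, so no direction is given for either.

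Snhg3 (ENSMUSG00000085241, chr4:132348014-132353686, minus strand), the host of the long H/ACA snoRNAs Snora73a and Snora73b, had 0 counts in both EV-RV libraries and in IRF4-RV replicate 1, and 1 count in IRF4-RV replicate 2. With so few counts it was not tested. Of its 986 exonic bases in GENCODE M21, 83.3% also belong to an exon of Rcc1 or of Gm17300, which left 165 bases of its own. The count table holds identifiers that are not in GENCODE M21, so reads may have been counted on other exon models than those used here for overlaps and lengths. How reads that fall on more than 1 gene were counted is not given in the sources used here, and the part of the overlap in this count was not tested. Rcc1, which encodes the nucleotide exchange factor of the GTPase Ran, starts 81 bases from Snhg3 on the same strand and was well counted. It had 187.2 and 210.6 CPM under EV-RV, against 131.9 and 137.6 CPM under IRF4-RV. The IRF4-RV libraries were both lower, with a log2 fold change of -0.56 ± 0.0838 (SE, adjusted p = 0.00267, edgeR).

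**Figure D2:**
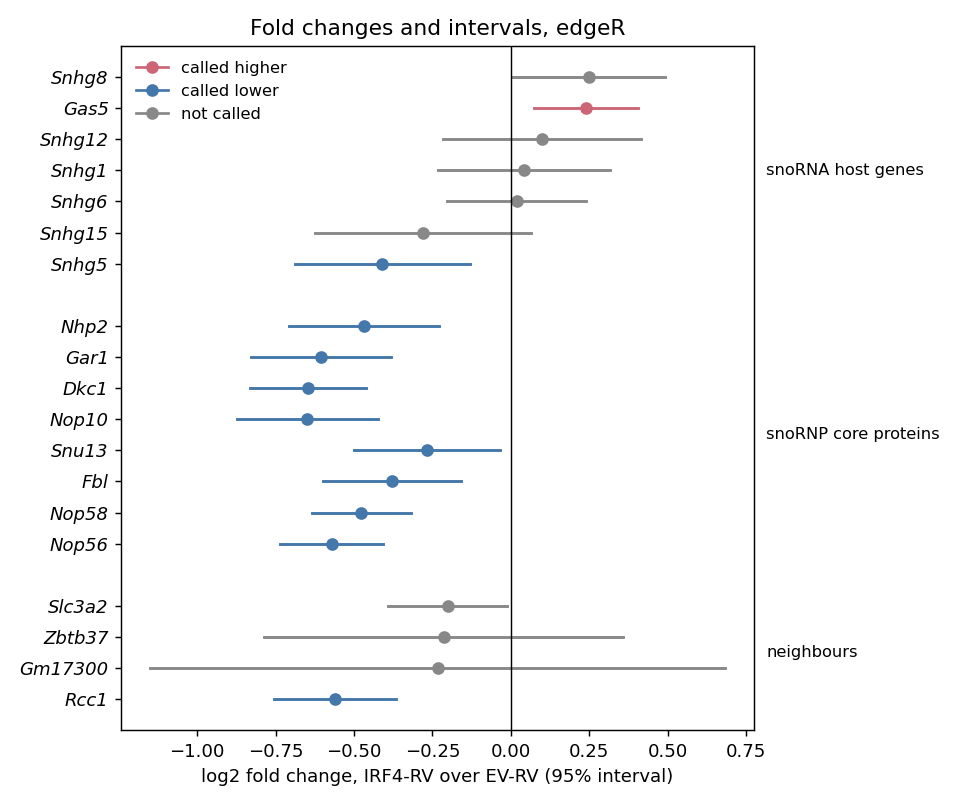
Log2 fold changes of IRF4-RV over EV-RV (x axis; points) with 95% intervals (lines) from edgeR for the 7 tested host genes, the 8 core proteins of snoRNPs and the 4 tested neighbours of the hosts, coloured by call at an FDR of 0.1. Gas5 is the only point called higher, Snhg5, Rcc1 and the genes of the 8 core proteins are called lower, and the remaining intervals belong to genes that did not pass.

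The other genes next to the hosts did not pass the test. Slc3a2, which encodes the heavy chain of amino acid transporters, starts 106 bases from Snhg1 on the opposite strand and had a log2 fold change of -0.20 ± 0.0816 (SE, adjusted p = 0.125, edgeR). It was called lower with library size alone (-0.29, adjusted p = 0.0229, edgeR) and with the filter of at least 1 CPM (-0.22, adjusted p = 0.0777, edgeR). A fit with the replicate number as a block also called it lower (-0.20, adjusted p = 0.00259, edgeR). Without EV-RV replicate 1 its log2 fold change was -0.29. Zbtb37, a zinc finger gene overlapping the start of Gas5 on the opposite strand, was at 2.61 to 4.11 CPM, with a log2 fold change of -0.21 ± 0.247 (SE, adjusted p = 0.59, edgeR). Gm17300 had 20 to 28 counts with IRF4-RV and 23 to 29 with EV-RV (log2 fold change -0.23 ± 0.394 SE, adjusted p = 0.728, edgeR). Reads of a gene and of its antisense partner cannot be told apart where counting ignored strand, and the strand setting is not given in the sources used here.

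As a group, the hosts were a small part of the RNA. The 8 members summed to 363.0 and 383.3 CPM under EV-RV, against 417.5 and 423.7 CPM under IRF4-RV. Without Gas5 the sums were 126.2 and 132.4 CPM against 126.5 and 139.1 CPM, so that the groups overlapped once Gas5 was left out. Gas5 held 65.2% and 65.5% of the counts of the members under EV-RV, against 69.7% and 67.2% under IRF4-RV.

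Levels of different genes were compared per kb of union exon length (all bases that are exonic in any annotated transcript). In EV-RV, Gas5 was highest at 63.0 and 66.7 CPM per kb, followed by Snhg8 at 36.4 and 43.3 and Snhg6 at 34.1 and 34.7. A lower tier held Snhg1 at 9.82 and 9.04, Snhg15 at 6.35 and 8.05 and Snhg5 at 6.95 and 6.86 CPM per kb. Snhg12 came last of the tested members at 2.61 and 2.54 CPM per kb. Neighbours in this order did not overlap between libraries except Snhg15 and Snhg5. The length used matters for hosts with many retained intron transcripts, since 20 of the 25 annotated transcripts of Gas5 and 14 of the 18 of Snhg1 are of that kind. Union exon length was 3760 bases for Gas5 and 2969 for Snhg1, while the median transcript had 629 and 602.5 bases. With the median transcript as length, an alternative chosen after the data were seen, Gas5 had 388 CPM per kb on average in EV-RV and Snhg6 (70.5) stood before Snhg8 (64.4), with the others in the same order.

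The snoRNAs themselves could not be followed. Of the 30 entries in the members, 26 were in the count table, and all 26 had 0 counts in all 4 libraries, each of which allows up to 3 counts. In GENCODE M21, 28 of the 30 entries overlap an exon of some transcript of their host. Across the whole table, 8 of 131 snoRNA entries that overlap a host exon had a count, against 107 of 263 that lie in introns only. The part of these overlaps in the zeros was not tested.

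Other hosts also had members in each direction. Of 14 further non-coding hosts listed, 6 were tested, of which 1 was called higher and 2 lower, where 16.0% and 13.7% of all genes were. The median log2 fold change was -0.59, but -0.32 without EV-RV replicate 2 and -0.23 without IRF4-RV replicate 1, with 7 hosts tested in both fits. Zfas1, which hosts box C/D snoRNAs, had 30.93 and 28.80 CPM under EV-RV, against 43.11 and 44.96 under IRF4-RV. Both IRF4-RV libraries were higher (log2 fold change 0.56 ± 0.0894 SE, adjusted p = 0.00367, edgeR). The hosts called lower, named after their values were seen, were Snhg17 (-0.94 ± 0.181 SE, adjusted p = 0.00835, edgeR) and Snhg20 (-0.76 ± 0.275 SE, adjusted p = 0.0908, edgeR), both at low levels. Snhg17 was called in each alternative, while Snhg20 was not called with DESeq2 (adjusted p = 0.297) or with any 1 library left out (adjusted p = 0.164 to 0.299, edgeR). A list of all non-coding genes with an annotated snoRNA inside was added after the data were seen. Beside the members, 22 of these were tested, with 3 higher, 5 lower and a median of -0.08. The calls came to 36.4% in either direction, against 29.7% of all genes. Besides Zfas1, the rule for naming genes took 2410006H16Rik (0.52 ± 0.0881 SE, higher) and Cct6a (-0.38 ± 0.0791 SE, lower). The annotation used classes Cct6a as non-coding although it is the gene of a chaperonin subunit. Cct6a is also in the list of protein-coding hosts below, and its call counts in both lists.

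Protein-coding hosts had calls in both directions. Of the 44 listed, all tested, 14 were called higher and 11 lower (56.8% in either direction, against 29.7% of all genes), with a median log2 fold change of 0.19. With library size alone the split was 6 higher and 15 lower. The leading genes were all lower: Gnl3, a nucleolar GTPase (-0.82 ± 0.0752 SE), Dkc1, the pseudouridine synthase (-0.65 ± 0.0791 SE), and Nop56, a core protein of box C/D particles (-0.57 ± 0.0708 SE), each called by edgeR. Taking every protein-coding gene with an annotated snoRNA inside gave 211 tested genes with 41 higher, 42 lower and a median of 0.04. The calls came to 39.3% in either direction, against 29.7% of all genes. With library size alone 19 were higher and 60 lower, with a median of -0.05. Ppan (-0.84), Gnl3 (-0.82) and Odc1 (-0.74) led the list, all lower. Of these 211, the 31 ribosomal protein genes counted 15 higher and 0 lower by edgeR (also 0 lower at an unadjusted p under 0.05 and by DESeq2, median 0.23), while the 180 others counted 26 higher and 42 lower (median -0.03). The calls of ribosomal protein genes by symbol came to 51.2% in either direction, against 29.7% of all genes, but moved with single libraries. Of 84 such genes by symbol, a list added after the data were seen, 41 were higher and 2 lower, but 5 were higher without EV-RV replicate 1, 78 without EV-RV replicate 2, 5 without IRF4-RV replicate 1 and 1 without IRF4-RV replicate 2. For the 44 listed hosts the calls higher by edgeR in these fits were 4, 24, 2 and 0, with 1 higher at an unadjusted p under 0.05 in the last.

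The mRNAs of the proteins that bind and modify with snoRNAs fell together, unlike the hosts. The box C/D core consists of the methyltransferase Fbl (fibrillarin) with Nop56, Nop58 and Snu13, and the box H/ACA core of the pseudouridine synthase Dkc1 with Nop10, Nhp2 and Gar1. All 4 tested genes of each core were called lower, where 13.7% of all genes were, with medians of -0.43 and -0.63 (log2). Nop56 had 221.3 and 226.7 CPM under EV-RV, against 148.6 and 153.0 under IRF4-RV, a log2 fold change of -0.57 ± 0.0708 (SE, adjusted p = 0.00113, edgeR). Dkc1 had 202.3 and 183.7 CPM under EV-RV, against 124.4 and 122.1 under IRF4-RV, a log2 fold change of -0.65 ± 0.0791 (SE, adjusted p = 0.00107, edgeR). In both genes the groups were far apart compared with the gap between replicates. Nop10 (-0.65), Gar1 (-0.61), Nop58 (-0.48), Nhp2 (-0.47), Fbl (-0.38) and Snu13 (-0.27) followed, all lower in both IRF4-RV libraries than in either EV-RV library. Snu13 was nearest to the threshold, with an adjusted p of 0.0995 in edgeR. All 8 log2 fold changes were negative in each alternative, and between 6 and 8 of the 8 were called. Nop56, Nop58 and Dkc1 are themselves protein-coding hosts and count in both lists.

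Of the 11 factors that assemble snoRNA particles, 7 were called lower by edgeR, where 13.7% of all genes were, and all 11 log2 fold changes were negative (median -0.32). Naf1, needed to build H/ACA particles, had 83.74 and 64.13 CPM under EV-RV, against 31.86 and 32.36 under IRF4-RV (log2 fold change -1.20 ± 0.129 SE, adjusted p = 0.000539, edgeR). Nolc1, a nucleolar and Cajal body chaperone of these particles, was at -0.75 ± 0.118 (SE) and Znhit6, a factor for box C/D assembly, at -0.74 ± 0.095 (SE), both called lower.

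**Figure D3:**
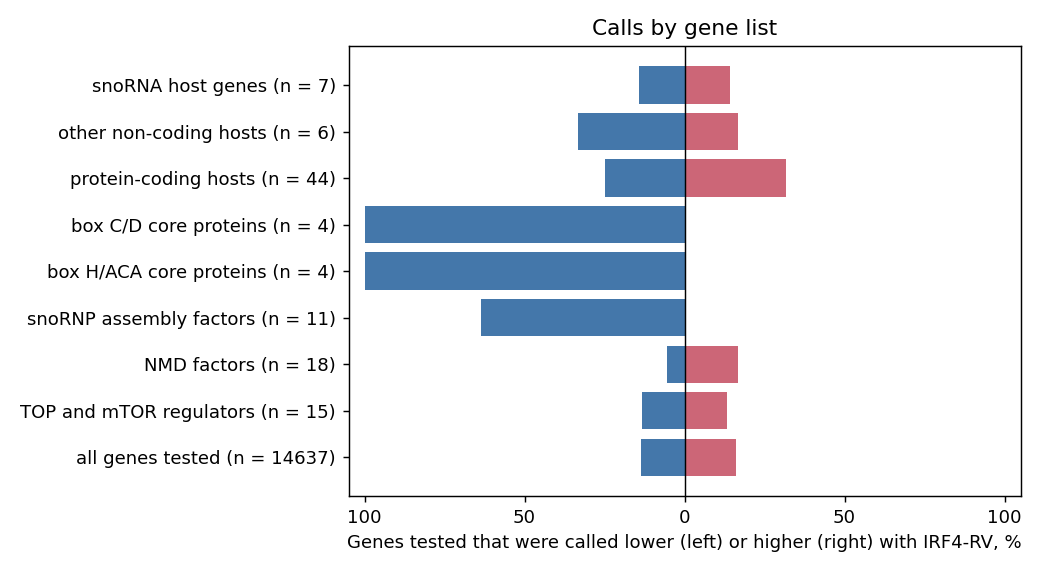
Percentage of the tested genes of each list called lower (left, blue) or higher (right, red) with IRF4-RV by edgeR at an FDR of 0.1, with the number tested beside each name and all genes tested at the bottom. Both snoRNP core lists lie fully on the left, while the 7 host genes have 1 call on each side, close to the bars of all genes.

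The next lists hold genes that act on host transcripts after splicing. Of 18 nonsense-mediated decay factors 3 were called higher and 1 lower (22.2% in either direction, against 29.7% of all genes, median log2 fold change 0.09). With library size alone 2 were higher and 5 lower. Xrn1, the cytoplasmic 5'-to-3' exonuclease, rose by 44.3% (0.53 ± 0.103 SE, adjusted p = 0.00856, edgeR) and Dcp2, the decapping enzyme, by 31.8% (0.40 ± 0.0835 SE, adjusted p = 0.0121, edgeR). Without IRF4-RV replicate 1 the adjusted p of Dcp2 was 0.103 in edgeR. The third, Pnrc2, a decapping adaptor named after its value was seen, was near the threshold (0.24 ± 0.0887 SE, adjusted p = 0.0976, edgeR) and was not called with DESeq2 (adjusted p = 0.133) or with any 1 library left out (adjusted p = 0.116 to 0.566, edgeR), and without IRF4-RV replicate 1 only 1 factor was called higher. Eif4a3, the helicase of the exon junction complex, fell by 0.27 on the log2 scale (adjusted p = 0.0338, edgeR), a call that was lost without IRF4-RV replicate 1 (adjusted p = 0.208, edgeR) and without IRF4-RV replicate 2 (adjusted p = 0.128, edgeR). The central helicase Upf1 and the other factors did not pass.

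Of 15 regulators of TOP mRNAs and mTOR, 2 were called higher and 2 lower (26.7% in either direction, against 29.7% of all genes, median log2 fold change 0.00). With library size alone 1 was higher and 5 lower. Mtor, the kinase itself, had 274.2 and 214.5 CPM under EV-RV, against 461.5 and 394.3 under IRF4-RV (0.81 ± 0.128 SE, adjusted p = 0.00349, edgeR). Eif4ebp1, a translation repressor that mTOR inactivates, had 97.74 and 110.1 CPM under EV-RV, against 53.89 and 54.69 under IRF4-RV (-0.94 ± 0.0873 SE, adjusted p = 0.000273, edgeR). Pdcd4, an inhibitor of the helicase eIF4A, was called higher (0.36 ± 0.133 SE, adjusted p = 0.0951, edgeR). This call was lost with DESeq2 size factors (adjusted p = 0.101, edgeR), with library size alone (0.27, adjusted p = 0.254, edgeR), without EV-RV replicate 2 (0.20, adjusted p = 0.336, edgeR) and without IRF4-RV replicate 1 (0.23, adjusted p = 0.333, edgeR), and without EV-RV replicate 1 the log2 fold change was 0.54. Eif4e, the cap binding protein, named after its value was seen, was lower (-0.34 ± 0.0764 SE, adjusted p = 0.0167, edgeR).

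The median profile of the tested hosts over the 4 libraries was nearly flat. Its centred log2 values ran from -0.0809 in IRF4-RV replicate 1 to 0.0966 in IRF4-RV replicate 2. Members with opposite signs enter it, so it does not stand for each of them. Among 9853 genes compared, the smallest Euclidean distances to it in log2 CPM were those of Rpsa-ps10 (0.023), Serpinb9 (0.0246), Gm11942 (0.0262), Gm12174 (0.0339) and Gmfg (0.0353). Rpsa-ps10 is annotated as a pseudogene, whose reads may belong to a near-identical copy.

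**Figure D4:**
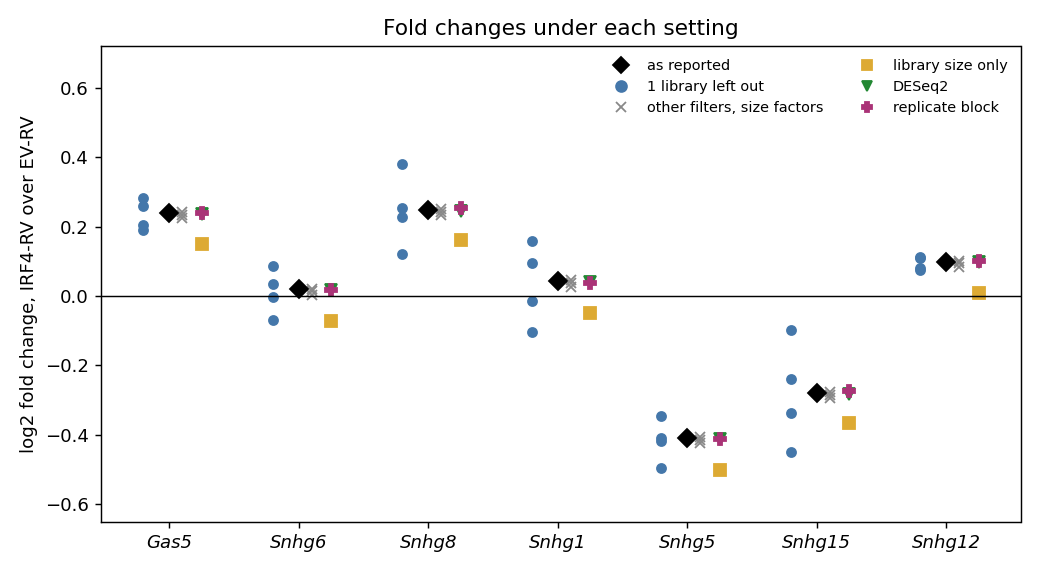
Log2 fold change of IRF4-RV over EV-RV (y axis) of the 7 tested host genes (x axis) as reported (diamonds) and under the alternative settings given in the legend. Gas5, Snhg8 and Snhg12 stay above 0 and Snhg5 and Snhg15 below 0 at every point, while the points of Snhg1 and Snhg6 lie on both sides.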

How the data were processed

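Per the labels and the study's methods, total RNA of transduced T8 cells was sequenced, reads were aligned to GRCm38 with STAR (2.4.0j), and the authors deposited raw counts per gene from featureCounts. The strand and multi-mapping settings are not given in the sources used here. The protocol text names T11 cells, while titles and tissue name T8, which was used. Of 55359 identifiers, 52083 matched GENCODE M21 (GRCm38), which gave symbols, exons and snoRNAs, and 3276 did not. Start sites and promoters came from RefSeq (GRCm38.p6).

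Genes passing filterByExpr were tested with edgeR 4.0.16 (R 4.3.3; TMM, quasi-likelihood F test, Benjamini-Hochberg over all genes tested, FDR 0.1), without covariates. The script was tested on simulated data. Library totals were 31686715 and 31230223 (EV-RV) and 34771970 and 37817752 (IRF4-RV). Replicates differed by more than sampling noise (chi-square over degrees of freedom 8.93 for EV-RV, 8.5 for IRF4-RV). The members and lists were chosen with earlier results of these data known. Named were all members, neighbours that passed the filter, all snoRNP core genes, up to 3 genes of each list past the FDR with the largest change and a mean of at least 5 CPM, and the 5 nearest profiles (pseudocount 0.5 CPM). Alternatives were DESeq2 size factors, library size alone, 2 other filters, DESeq2 1.42.0, a replicate block, an FDR of 0.05 and leaving out each library.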

Additional observations from a re-analysis of the deposited data

How the results depend on the processing

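Of 11 alternatives, Gas5 was called in 7 (log2 fold change 0.15 to 0.28) and Snhg5 in 7 (-0.50 to -0.35), each with its sign kept. The host genes called higher were 1 as reported, 0 with library size alone, 2 with the replicate block (Gas5 and Snhg8, adjusted p = 0.00969, edgeR) and 0 to 2 with 1 library left out. Those called lower were 1 as reported, 0 with DESeq2 and 0 to 1 with 1 library left out. The genes of the other lists called higher were 20 of 99 as reported, 10 with library size alone, 32 with the replicate block, 8 at an FDR of 0.05 and 6 to 28 with 1 library left out. Genes of these lists called lower were 28 of 99 as reported, 40 with library size alone, 38 with the replicate block and 25 at an FDR of 0.05. Over all genes tested, 16.0% were called higher and 13.7% lower as reported. With library size alone the sign reversed for Snhg1 (-0.0503) and Snhg6 (-0.0722). With 1 library left out the log2 fold change ran from -0.103 to 0.157 for Snhg1, from -0.0694 to 0.0855 for Snhg6 and from -0.457 to 0.0376 for Zbtb37. The cause was not tested. Fits without 1 library leave a group with a single library, which is assumed to vary like the others. Same-numbered libraries deviated together with r = 0.284 across 14637 genes. The labels name no shared batch, so whether these libraries were handled together is not known. With the block, 3426 genes were called higher and 2968 lower, against 2340 and 2009 as reported. Of the 84 ribosomal protein genes, 78 were then called higher, against 41 as reported. Beside that of Snhg8, the block changed no call of a host gene. With 2 libraries a group, Snhg5, Snhg12 and Snhg15, at 192 to 401 counts in a library, are the least precise.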
